A study of Mus musculus with 12 samples.

Results

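Gene deserts are long stretches of a chromosome that hold no gene. They are known for late replication and, beside developmental genes, for enhancers that act over long distances. Zscan4c, which joins a SCAN domain to zinc fingers, belongs to the Zscan4 family. Genes of this family are switched on when the early mouse embryo first transcribes its own genome. In cultured embryonic stem (ES) cells Zscan4 appears in few cells at a time and is known for a role in the upkeep of telomeres. The regions described here are those of FLAG-tagged Zscan4 that lie in gene deserts. They were chosen by position alone: a region on chromosomes 1 to 19 was a member when its midpoint lay in no annotated gene of any class and more than 50 kb from the nearest gene boundary. Of 4973 regions in the whole list, 4759 lay on the autosomes, 2238 of these lay in no gene, and 329 were members (14.7% of the autosomal regions in no gene). The other 1909 autosomal regions in no gene, all within 50 kb of a gene, were the comparison, and 2521 autosomal regions lay in a gene.

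The regions come from mouse J1 ES cells, a line labelled as strain 12910la, that carried the coding sequence of Zscan4c in the vector pCMV-FLAG and were labelled Zscan4 overexpression. Cells received 1000 ng of plasmid, were selected from 24 h on with 500 ug/ml G418 for 10 days, and were picked as monoclonal cells, so they stand for picked clones that express the tagged protein from a viral promoter. Their labels also give LIF at 10 ng/ml. Chromatin from these cells was precipitated with an anti-FLAG antibody and an input was sequenced beside it. The series labels 12 samples in 12 groups of 1, and the histone mark samples were not analysed here. Without a replicate, every test below compares regions of 1 library with other regions of the same library, and its p covers counting error among these regions and not the spread between cultures. The list gives 1 score per region, the authors' value on an unstated scale, and no read counts, so depth is unknown. A region absent from the list is not shown to be unbound.

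FLAG-Zscan4 regions were sparser in gene deserts than in the rest of the sequence between genes. The 329 members lay in 359 Mb of autosomal sequence that is more than 50 kb from any gene, which gave 0.915 regions per Mb (95% exact Poisson interval 0.819 to 1.02). The other 1909 regions in no gene lay in 856 Mb and gave 2.23 per Mb (2.13 to 2.33). The ratio of the rates was 0.410 (95% interval 0.364 to 0.462; exact conditional binomial test, two-sided, p = 8.53e-61). Genes themselves, over 1187 Mb, held 2.12 regions per Mb (2.04 to 2.21), close to the sequence that borders them. Among regions of score 55 or more, the upper quartile of the whole list, the ratio was 0.651 (exact conditional binomial test, p = 1.09e-05). Assembly gaps and sequence to which reads cannot be placed count in these Mb, and their part in the lower rate was not tested.

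The lower rate lay mainly in the narrow regions. Members under 500 bp wide numbered 172, or 0.478 per Mb (0.410 to 0.556), against 1.73 per Mb (1.65 to 1.82) in the other sequence between genes and 1.72 per Mb (1.65 to 1.80) inside genes. The ratio for narrow regions was 0.276 (95% interval 0.234 to 0.323; exact conditional binomial test, adjusted p = 1.28e-78 over 2 widths). Members of 500 bp or more numbered 157, or 0.437 per Mb (0.371 to 0.511), against 0.496 per Mb (0.450 to 0.546) in the other sequence between genes and 0.403 per Mb (0.367 to 0.441) inside genes. Their ratio of 0.880 had an interval of 0.728 to 1.06 and did not pass the test (exact conditional binomial test, adjusted p = 0.173). Wide regions were thus listed at rates between 0.403 and 0.496 per Mb in all 3 kinds of sequence, while narrow ones were listed far less often per Mb in deserts. The same Mb stand under both ratios. The wide rate of 0.496 joins 0.344 per Mb within 5 kb of a gene with 0.541 to 0.588 per Mb at 5 to 50 kb. The desert rate of 0.437 is above the first and below the others. The limit of 500 bp was fixed for the comparison of shares, and the comparison of rates by width was added after the data were seen. With the limit at 350 bp the ratio for the wider regions was 0.654 and passed the test (exact conditional binomial test, adjusted p = 1.79e-08).

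Finer classes of width showed where the change lay. Between 219 bp, the narrowest width in the list, and 249 bp, members were listed at 0.117 per Mb and other regions in no gene at 0.589 per Mb, a ratio of 0.198. The ratio was 0.263 for widths of 250 to 299 bp, 0.301 for 300 to 399 bp, 0.476 for 400 to 499 bp, 0.794 for 500 to 749 bp and 1.02 for 750 to 999 bp. For the 24 members of 1000 bp or more it was 0.893. The ratio thus rose with width over the first 6 classes. These are values without a test.

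**Figure D1:**
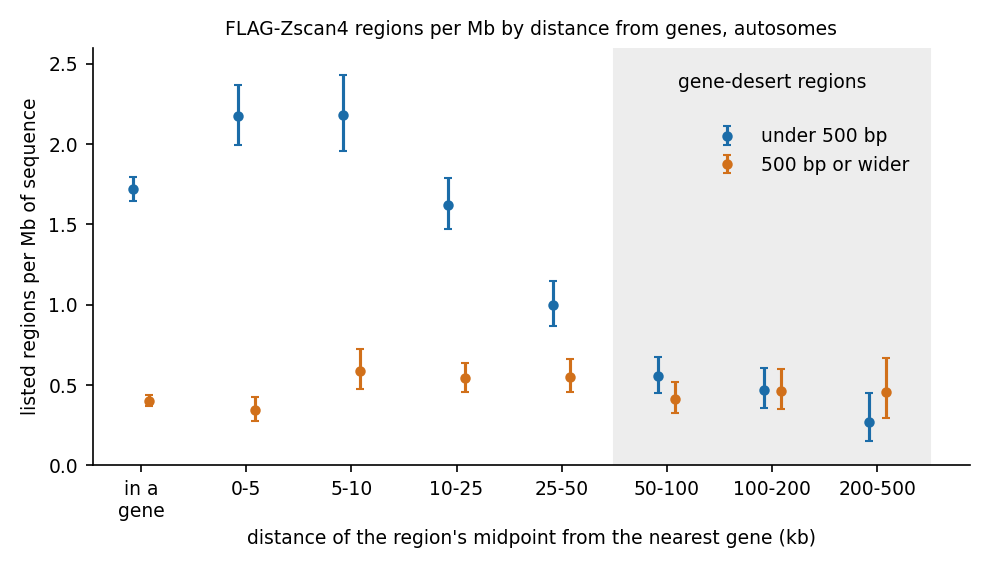
Listed FLAG-Zscan4 regions per Mb (vertical axis) inside genes and in classes of distance from the nearest gene in kb (horizontal axis), for regions under 500 bp and of 500 bp or more. Points are rates and bars 95% exact Poisson intervals; the narrow regions fall from 2.18 per Mb within 5 kb to 0.273 per Mb at 200 to 500 kb, and the wide ones stay between 0.344 and 0.588.

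The change with distance began before the 50 kb limit and went on beyond it. Narrow regions were listed at 2.18 per Mb within 5 kb of a gene and at the same rate at 5 to 10 kb, at 1.62 per Mb at 10 to 25 kb and at 0.999 per Mb at 25 to 50 kb. Within the deserts they were at 0.554 per Mb (0.450 to 0.674) at 50 to 100 kb, 0.470 per Mb (0.357 to 0.608) at 100 to 200 kb and 0.273 per Mb (0.153 to 0.449) at 200 to 500 kb. Wide regions were at 0.344 per Mb within 5 kb, 0.588 at 5 to 10 kb, 0.541 at 10 to 25 kb and 0.552 at 25 to 50 kb. Within the deserts the wide ones were at 0.414 per Mb (0.325 to 0.520), 0.462 per Mb (0.350 to 0.599) and 0.454 per Mb (0.294 to 0.670) over the same classes, and these intervals overlap. The share of wide regions among all regions accordingly went from 13.7% within 5 kb to 42.8% at 50 to 100 kb, 49.6% at 100 to 200 kb and 62.5% (25 of 40 regions, 95% Wilson interval 47.0 to 75.8%) at 200 to 500 kb. A single member lay farther than 500 kb from any gene.

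Sequence near genes differs from deserts in more than distance, so the members were also set beside the flanks of the same gaps between genes, a comparison added after the data were seen. A gap of more than 100 kb is needed to hold a member between genes, and the 280 Mb within 50 kb of the genes at the edges of such gaps held 341 regions, or 1.22 per Mb. Against these flanks the ratio of rates was 0.752 (95% interval 0.645 to 0.878; exact conditional binomial test, p = 0.000248), nearer to 1 than against all sequence between genes. For narrow regions it was 0.621 (0.505 to 0.762; exact conditional binomial test, adjusted p = 5.93e-06), and for wide regions 0.979 (0.769 to 1.25; exact conditional binomial test, adjusted p = 0.857). The direction for narrow regions was therefore also found inside the same gaps, at a smaller size.

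As a set, the members were wide. Their median width was 480 bp (interquartile range 292 to 748 bp), against 306 bp (248 to 466 bp) for the other regions in no gene and 298 bp (244 to 421 bp) inside genes. A width of 500 bp or more was held by 157 of 329 members (47.7%, 95% Wilson interval 42.4 to 53.1%) and by 425 of 1909 others (22.3%, 20.5 to 24.2%), 2.14 times the share (Fisher's exact test, two-sided, adjusted p = 9.28e-20 over 4 comparisons). Against the flanks of the same gaps, where the share was 36.7%, the ratio was 1.30 (Fisher's exact test, adjusted p = 0.00769). The members together covered 186 kb, and 23 of them were wider than 1000 bp. The widest region of the whole list, 4244 bp, was a member.

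The members also had higher scores, with a median of 42 (interquartile range 23 to 75) against 31 (21 to 53) for the others and 32 (22 to 50) inside genes. A score at or above 33, the median of the whole list, was held by 208 members (63.2%) and 925 others (48.5%), a ratio of 1.30 (Fisher's exact test, adjusted p = 1.17e-06). Scores of at least 100 were found for 64 members (19.5%) and 202 others (10.6%), a ratio of 1.84 (Fisher's exact test, adjusted p = 1.81e-05). Per Mb there were 0.178 members of such a score (0.137 to 0.227) and 0.236 others (0.205 to 0.271), a ratio of 0.754 (95% interval 0.560 to 1.00), so the higher share did not come with more such regions per Mb. With the limit at a score of 200 the ratio of shares was 1.43 and did not pass (Fisher's exact test, adjusted p = 0.212). Nor did the share of scores of 100 or more pass against the flanks of the same gaps (16.4% there, ratio 1.18, Fisher's exact test, adjusted p = 0.315). Without 19 to 21 Mb of chromosome 8 the ratio against all others was 2.07 (19.2% and 9.28%). The comparison with the flanks was not run without this stretch.

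Score and width moved together, and of the 64 members with a score of 100 or more 56 were at least 500 bp wide. Across the 329 members Spearman's rho between score and width was 0.56, and across the 1909 others 0.33. Both values come from 1 library and from regions that share the rule by which they were listed, and are given as descriptions. Each quantity was then compared within bands of the other, an addition made after the data were seen.

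**Figure D2:**
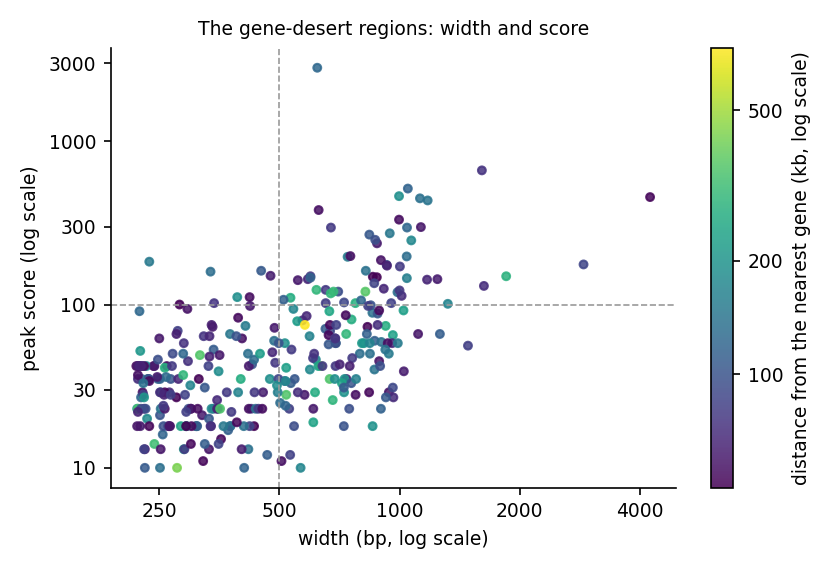
Width in bp (horizontal, log scale) and peak score (vertical, log scale) of the 329 gene-desert regions, 1 point each, coloured by distance from the nearest gene in kb on a log scale. Dashed lines mark 500 bp and a score of 100; 56 members lie above both lines, 8 above the score line but below 500 bp, and the single highest, of score 2818, is 622 bp wide.

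At a like score the members were wider. In each of 5 bands of score the share of regions of 500 bp or more was higher among members than among the others. It was 13.5% against 4.46% for scores of 10 to 19 (7 of 52 and 20 of 448 regions), 26.6% against 13.7% for 20 to 29, 37.8% against 20.7% for 30 to 49, 65.3% against 32.5% for 50 to 99, and 87.5% against 67.8% for 100 or more (56 of 64 and 137 of 202). All 5 differences passed Fisher's exact test after adjustment over the bands, with adjusted p from 9.92e-07 for scores of 50 to 99 to 0.0151 for the lowest 2 bands.

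At a like width the scores were close. Among regions of 200 to 299 bp the median score was 29 for members and 28 for the others, among those of 300 to 499 bp it was 29 for both, and among those of 500 to 999 bp it was 58 and 51. For 1000 bp or more it was 147 in 24 members and 171.5 in 64 others. The share of scores of 100 or more did not pass Fisher's exact test in any of these 4 bands (adjusted p = 1 in each), with odds ratios from 0.715 to 1.27. Among regions under 500 bp, 44.8% of members and 39.9% of others had scores of at least 33 (ratio 1.12, Fisher's exact test, adjusted p = 0.439).

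**Figure D3:**
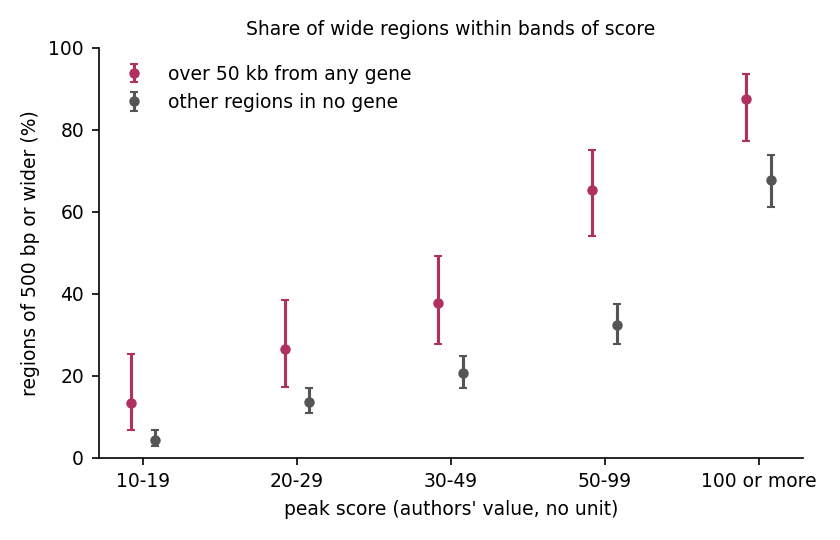
Share of regions of 500 bp or more, in percent, within 5 bands of the authors' score, for regions over 50 kb from any gene and for the other autosomal regions in no gene. Points are shares and bars 95% Wilson intervals; the desert regions are higher in each band, from 13.5% against 4.46% in the lowest to 87.5% against 67.8% in the highest.

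Fewer of the members had a listed region close by. Another listed region lay within 10 kb of 21 of 329 members (6.38%, 95% Wilson interval 4.21 to 9.56%) and of 314 of 1909 others (16.4%, 14.9 to 18.2%), 0.388 times the share (Fisher's exact test, adjusted p = 7.96e-07). In the flanks of the same gaps, with 1.22 regions per Mb, the share was 19.9%. The ratio of members to these flanks was 0.320 (Fisher's exact test, adjusted p = 7.33e-07). How far the lower share of members goes with their lower rate per Mb was not tested. The median distance to the nearest listed region was 310 kb for members and 103 kb for the others. With a limit of 25 kb in place of 50 kb the ratio of shares was 0.874 and did not pass (Fisher's exact test, adjusted p = 0.265). By distance from genes the share was 17.4% within 5 kb, 15.6% at 5 to 10 kb and 13.4% at 10 to 25 kb. It was highest at 25 to 50 kb, at 21.2% (66 of 312), and 6.94% at 50 to 100 kb. Without 19 to 21 Mb of chromosome 8 it was 6.10% for members and 14.3% for the others, a ratio of 0.425. There were 10 adjoining pairs of members within 10 kb. The closest lay on chromosome 13 (68015486 to 68015805, score 21, and 68016037 to 68016522, score 72), with midpoints 634 bp apart. On chromosome 18 a run of 3 members, at 82162394 to 82162692 (score 32), 82167368 to 82167932 (score 10) and 82169555 to 82170875 (score 101), made up 2 of the 10 pairs.

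Every autosome held members, from 5 on chromosomes 7 and 19 to 42 on chromosome 1, with a median of 17. The rate was lower than in the other sequence between genes on all 19 autosomes, with ratios from 0.196 on chromosome 8 to 0.783 on chromosome 18. On chromosome 8 the members stood at 0.903 per Mb, the median of the autosomes, while the other regions in no gene stood at 4.61 per Mb, the highest of any autosome. The low ratio there thus goes with a high rate of the other regions and not with few members. Without 19 to 21 Mb of this chromosome, the others of all autosomes numbered 1854 instead of 1909. Members numbered 328 instead of 329. Narrow regions were sparser in deserts on all 19 autosomes. Wide regions were sparser on 11 and denser on 8. On 18 of 19 the ratio for narrow regions was below that for wide ones, chromosome 7, with 5 members, being the exception.

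**Figure D4:**
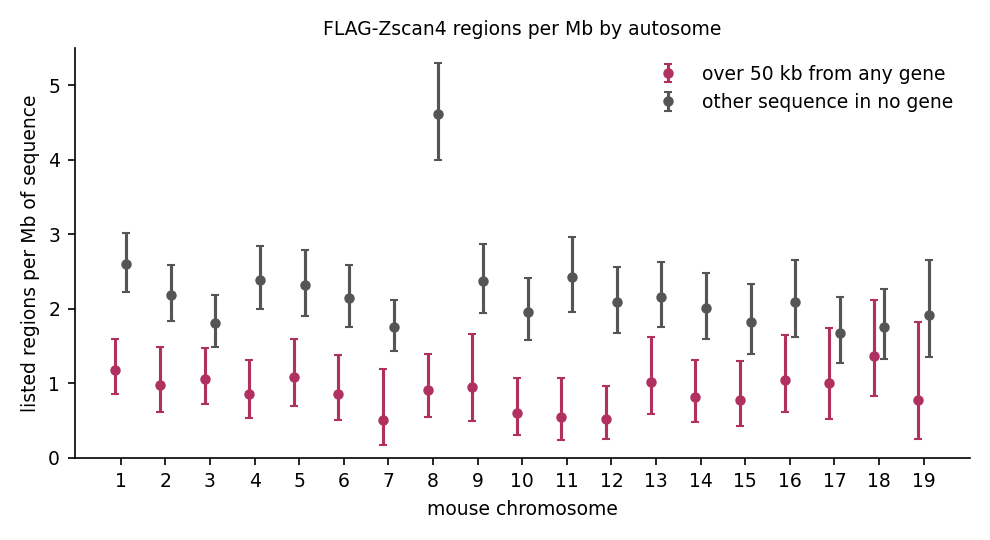
Listed FLAG-Zscan4 regions per Mb (vertical axis) on each autosome (horizontal axis), in sequence over 50 kb from any gene and in the other sequence between genes. Points are rates and bars 95% exact Poisson intervals; desert rates run from 0.513 on chromosome 7 to 1.37 on chromosome 18 and lie below the other rate of the same chromosome on all 19.

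Median width was greater among members than among the others on 18 of 19 autosomes, and the median score on 14. Chromosome 15 had the highest median score among members, 91.5 in 14 regions against 26 in 62 others, and 7 in 14 of those members reached 100. Chromosome 10 followed with a median score of 80 in 11 members against 27 in 89 others. On chromosomes 1, 7, 8 and 9 the members' median score was lower than that of the others. Single chromosomes hold few members, and these medians were not tested.

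The member of highest score lay beyond Fgf14, a gene for an intracellular fibroblast growth factor homologue that binds voltage-gated sodium channels, at 124801579 to 124802200 on chromosome 14, with a score of 2818. Fgf14 was the last annotated gene of that chromosome, 124 kb away. This member is thus in a gap that has a gene on 1 side and no annotated gene on the other. The end of a chromosome was taken as its last annotated or listed position. How far this member lay from the true end, or from unassembled sequence there, was not measured. The next scores were far lower. The second, of 663, lay on chromosome 16 (30717377 to 30718984), with the long non-coding RNA gene Gm33502 at 75.2 kb and Fam43a at 115 kb. The third, of 513, lay on chromosome 2 (115161364 to 115162412) between the long non-coding RNA gene Gm13974 and 4930528P14Rik, 419 kb from the nearest protein-coding gene, BC052040. These 3 were the members among the 50 highest scores of the whole list and the only ones over 500.

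Of the following 7, several lay very far from protein-coding genes. The fourth (chromosome 3, 111691445 to 111692441, score 461) was 190 kb from Gm6602 and 1441 kb from Prmt6, which encodes an arginine methyltransferase that acts on histone H3. The tenth (chromosome 3, 47965841 to 47966971, score 298) was 59.6 kb from Gm7977 and 1518 kb from Pabpc4l. The sixth (chromosome 15, 21861347 to 21862471, score 447) was 136 kb from Gm41278 and 263 kb from Cdh12, a cadherin gene of the nervous system. The seventh (chromosome 13, 82555331 to 82556506, score 434) was 142 kb from the microRNA gene Mir3961 and 759 kb from Cetn3, a centrin gene. The eighth (chromosome 18, 59954014 to 59954640, score 379) and the ninth (chromosome 12, 15191724 to 15192720, score 331) were 258 kb from Gm4951 and 600 kb from Trib2, a pseudokinase gene. The fifth was the widest region, on chromosome 8 (20702647 to 20706890, score 455). It lay 52.4 kb from Gm46074 in a stretch crowded with other regions, the nearest of them at 3.22 kb, and was a member by a small margin.

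The member farthest from any gene lay on chromosome 4 (29933215 to 29933793, 579 bp, score 75), between Gm11919 at 737 kb and 4930556G01Rik at 731 kb. The nearest protein-coding gene was Epha7, which encodes an ephrin receptor, at 966 kb. The next, on chromosome 14 (91939338 to 91939972), had a score of 42, with the small nucleolar RNA gene Gm24127 at 429 kb and the protocadherin gene Pcdh9 at 1074 kb. The third, on chromosome 3 (44192357 to 44192633), had a score of 10, with the pseudogene Gm29739 at 428 kb and Pcdh10, also a protocadherin gene, at 1186 kb. The fourth (chromosome 14, 107165670 to 107166490, score 120) was 359 kb from the pseudogene Gm9334. The fifth (chromosome 2, 7795048 to 7795363, score 49) was 352 kb from the pseudogene Gm13254 and 399 kb from Celf2, an RNA-binding protein gene. Their scores ran from 10 to 120. Across members, Spearman's rho of distance with score was 0.039 and with width 0.13.

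The limit of 50 kb cut through a continuous range. The 5 members just inside it, at 50.1 to 51.1 kb, had scores of 18, 18, 147, 100 and 27 and widths of 292, 432, 877, 281 and 276 bp. Their nearest genes were Gm29781, Spred2, an inhibitor of Ras signalling, Gm41736, Gm46177 and Gm30815. The 5 regions just outside, at 49.2 to 49.98 kb, had scores of 102, 97, 29, 58 and 98 and widths of 798, 817, 666, 775 and 837 bp. They lay nearest to Gm2988, Gm35326, Pcdh9, the centrosomal gene Cep128 and Gm46074. The last of these lay close to the widest member, on chromosome 8.

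The highest members of the other autosomes had scores from 66 on chromosome 19 to 296 on chromosomes 1 and 17. Among their nearest protein-coding genes were Sntg1, a syntrophin gene, at 330 kb on chromosome 1 and Map3k7, which encodes the kinase TAK1, at 1430 kb on chromosome 4. On chromosome 7 the highest member (62167399 to 62168232, score 98) lay 82.5 kb from Mir344i and 180 kb from Ndn, the imprinted necdin gene. On chromosome 9 it lay 137 kb from Htr1b, a serotonin receptor gene (81490529 to 81491351, score 161), and on chromosome 17 it lay between Gm5684 at 123 kb and Slc5a7, the choline transporter gene, at 147 kb (54125763 to 54126806, score 296). On chromosome 6 it lay 67.7 kb from Ndufa4, a gene of a mitochondrial respiratory subunit (11832210 to 11833122, score 125). Chromosome 19 stood apart: its highest member (33891450 to 33891725) was narrow, at 276 bp, while those of the other 18 autosomes were 622 bp or wider.

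Most deserts held no member. There were 2804 gaps, chromosome ends included, with sequence beyond 50 kb from any gene, and 286 of them (10.2%) held a member. In 251 there was 1 member, in 27 there were 2 and in 8 there were 3, the most in any gap. The rate fell with the length of the gap, from 1.17 members per Mb (95% exact Poisson interval 0.920 to 1.47) in gaps of up to 200 kb to 0.938 (0.806 to 1.09) at 200 to 500 kb, 0.754 (0.587 to 0.954) at 500 to 1000 kb and 0.457 (0.168 to 0.995) above 1000 kb. The intervals of neighbouring classes overlap. Over the same classes the share of wide members went from 37.3% to 45.8%, 62.3% and 66.7%, the last of 6 members.

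Of the 8 gaps with 3 members, 2 lay on chromosome 8. The shortest of the 8, 176 kb between Gm42034 and Mir8110 (88848307 to 89024734), held 3 members of scores 14, 24 and 23 and 7 listed regions in all. The other chromosome 8 gap, 273 kb between Gm18318 and Gm33029 (11961516 to 12234665), held members of scores 33, 58 and 18. On chromosome 13 the gap between Gm7969 and AA414992 (67954508 to 68181299, 227 kb) held the closest pair named above and a further member of 1262 bp (score 66). On chromosome 5 the gap between Smim20 and Gm40304 (53278541 to 53546180, 268 kb) held scores of 18, 23 and 26, and on chromosome 15 the gap between Tspyl5 and Gm9643 (33687884 to 34012651, 325 kb) held scores of 183, 10 and 23. The remaining 3 of the 8 were longer. They lay on chromosome 18 between Mir5127 and Gm17383 (81992081 to 82338406, 346 kb; the run of 3 given above), on chromosome 16 between Gm9017 and Gm23852 (60614265 to 61070017, 456 kb; scores 60, 58 and 50) and on chromosome 9 between the cadherin family gene Fat3 and Gm5611 (16502682 to 17029965, 527 kb; scores 31, 91 and 34). Of the 24 members in these 8 gaps, 15 were below the members' median score of 42.

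Of the 5 longest gaps, 3 held no member and 2 held 2 each. The longest, 1468 kb on chromosome 4 between Gm11919 and 4930556G01Rik (29196279 to 30664595), held 2 members: the one farthest from any gene, and the highest of chromosome 4 (30533198 to 30534239, score 197). The gap of 1272 kb between Gm7899 and Gm9723 on chromosome 3 (41978126 to 43250386) held members of scores 29 and 35. No member was listed in the gaps of 1311 kb on chromosome 15 between Gm9630 and 4930557F08Rik, of 1283 kb on chromosome 14 between Gm19050 and Gm24774, or of 1219 kb on chromosome 5 between Gm7931 and Gm17824, and the last of these held 1 region within 50 kb of a gene.

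The genes at the edges of deserts were mostly not protein-coding. The gene nearest to a member was a pseudogene for 131 members (39.8%), a long non-coding RNA gene for 89 (27.1%) and protein-coding for 67 (20.4%). These shares were counted for members only, so they do not set members apart from other regions or from the gene table. The median distance to the nearest protein-coding gene was 225 kb, and 81 members were more than 500 kb from one. Both edges were protein-coding in 9 of 286 gaps with a member and in 150 of 2518 without, and neither was in 61.9% and 63.5%.

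Groups of genes at the edges were taken from the stems of their symbols and compared as counts, without a test. The stems do not cover every gene of a kind: Fat3, Chl1, Trpc6 and Dmrta2, for example, stood at the edge of gaps with a member and are in no count below. Predicted or uncharacterised genes stood at an edge of 94.4% of gaps with a member and 92.7% of gaps without. Genes of 23 families of cell adhesion and axon guidance (cadherins Cdh and Pcdh, Cntn, Cntnap, Sema, Robo, Slit, Epha, Ephb, Unc5, Tenm and others) stood at 10 of 286 gaps with a member (3.50%) and 52 of 2518 without (2.07%). Gaps at such genes, with or without a member, had a median length of 254 kb. Over all genes, gaps with a member had a median length of 287 kb and those without 165 kb. Gaps at adhesion and guidance genes held 0.867 members per Mb (0.416 to 1.59), close to the 0.915 of all deserts. Among the members there were one of score 198 at 56.6 kb from the semaphorin gene Sema6a (chromosome 18, 47188261 to 47189013), one of 85 at 68.2 kb from the protocadherin gene Pcdh20 (chromosome 14, 88539265 to 88539849) and one of 56 at 82.2 kb from the ephrin receptor gene Epha3 (chromosome 16, 63460639 to 63462122).

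Developmental transcription factor genes often border deserts rich in enhancers. Those of 24 families, among them Sox, Fox, Pax, Irx, Tbx, Lhx, Sall and Hox, stood at 2 of 286 gaps with a member and 21 of 2518 without (0.699% and 0.834%). Dmrta2, at the edge of another gap with a member, is outside these 24 families. The members in the 2 gaps counted were at 78.6 kb from Irx1 (chromosome 13, 72042060 to 72042666, score 47) and 129 kb from Pax3 (chromosome 1, 77972307 to 77972709, score 62). An edge gene is the nearest gene of any class, so a factor gene behind it is not counted. For a member between Gm42034 and Mir8110 (88961415 to 88961763, score 23) the nearest protein-coding gene was Sall1, at 65.7 kb. It was Lhx5, at 85.1 kb, for one on chromosome 5 (score 18) and Sall3, at 110 kb, for one on chromosome 18 (score 27). These are examples, and gaps without a member were not searched in this way. Genes with the channel and receptor stems Kcn, Scn, Cacn, Gri, Grm and Gabr stood at 4 gaps with a member, those at Gabra2, Grin2a, Grm7 and Kcnh8, and 31 without. Chemoreceptor genes (Olfr, Vmn1r, Vmn2r and Taar) stood at 2 and 10, and zinc finger genes of the Zfp series at 1 and 10. The genes named from these groups were picked after their values were seen, and their counts are too small to set one group apart from another.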

How the data were processed

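One list of regions from the FLAG immunoprecipitation of overexpressing cells was analysed. The authors deposited 1 score per region, as whole numbers. Positions, in bp on mm10 per the submitters' processing notes, count starts from 0 in the deposited list and from 1 in the text. Those notes also name the tools MACS2, Bowtie2, cutadapt and deepTools, without versions or thresholds. Whether the input entered peak calling, and on what scale the score is, was not stated. The list holds no read counts, so intervals cover counting error only.

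Gene positions came from the RefSeq table of assembly GRCm38.p6, whose chromosomes are those of mm10. Of 47042 autosomal genes, 46714 were used, after 328 that start below 3 Mb were left out. No genome sequence was used here, so sequence features, exons and introns were not analysed, and assembly gaps were kept in the Mb. Each autosome ran from its first to its last annotated or listed position. Width is end minus start, and gaps between genes were measured after overlapping genes were merged.

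Shares were compared with two-sided Fisher's exact tests (Benjamini-Hochberg adjustment over 4 comparisons, or over the bands), and rates with a two-sided exact conditional binomial test, at a threshold of 0.05, in Python 3.11.15 with scipy 1.17.1. Both tests count regions as independent. The classing and tests were tested on simulated data. Members, lists and tests were chosen with earlier results of these data known. Regions were named by a rule: the 10 highest members, the 5 farthest from a gene, the 5 on either side of 50 kb, the highest per autosome, the 5 gaps with most members (ties to the shorter gap) and the 5 longest, with the genes beside them. Since 8 gaps tied at 3 members, the remaining 3 are named too, and they, Chl1, Trpc6, Dmrta2, Sall1, Lhx5 and Sall3 were added after their values were seen.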

Additional observations from a re-analysis of the deposited data

How the results depend on the processing

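Of 73 recomputed values over 7 results, 67 kept their direction and their side of the threshold. The share of wide regions did so in 12 of 12 settings (ratios 1.30 to 2.26), the rate per Mb in 10 of 10 (0.412 to 0.752) and the rate of narrow regions in 9 of 9 (0.247 to 0.621). The other results lost or gained a call in these settings. With members more than 25 kb from any gene the ratio of neighbour shares was 0.874. With a score limit of 200 the ratio of high-score shares was 1.43, and against the flanks of the same gaps it was 1.18. Among regions under 500 bp wide the ratio was 1.12 for scores of 33 or more and 1.06 for scores of 100 or more. The rate of wide regions passed with a limit of 350 bp, at 0.654. The cause of these changes was not tested. The settings were limits of 25 and 100 kb, protein-coding genes alone, the nearest edge of a region, leaving out chromosomes 1 and 8 or 1 Mb at both chromosome ends, merging regions within 10 kb, and other limits of score, width and spacing. Those added after the data were seen were the flanks of the same gaps, leaving out 19 to 21 Mb of chromosome 8, the bands of score or width, and all settings for narrow and wide rates. Each list entry comes from 1 library of unknown depth, so weak regions in deserts may have been missed.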

Other observations

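The X chromosome lay outside the rule and was measured in the same way. More than 50 kb from any gene it held 50 regions in 35.0 Mb, or 1.43 per Mb (95% exact Poisson interval 1.06 to 1.88), against 70 regions or 0.884 per Mb (0.689 to 1.12) in its other sequence between genes. The ratio of 1.62 (95% interval 1.10 to 2.36) was above 1, while the ratio was below 1 on all 19 autosomes. Narrow regions had a ratio of 1.66 (0.912 to 2.97) and wide regions one of 1.58 (0.941 to 2.63), and a width of 500 bp or more was held by 28 of 50 regions in deserts (56.0%) and 40 of 70 others (57.1%). The difference between the X chromosome and the autosomes was not tested, and copy number was not measured.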
